A study of Mus musculus with 16 samples.

Results

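The regions described here are stretches of the mouse genome at which CTCF was called in embryonic stem (ES) cells grown in each of 2 media and not in neural progenitor cells (NPCs). CTCF is a zinc-finger protein that binds a long DNA motif, and it is known as the insulator protein of vertebrate chromatin. It stops the cohesin ring at its sites, and pairs of its sites often lie at the bases of chromatin loops and at borders between domains.

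The regions were chosen by the presence of peaks. The 3 deposited lists of CTCF peaks were merged wherever peaks overlapped by at least 1 bp, which gave 60688 regions. A region was kept where it held a peak of the ES serum list and one of the ES 2i list but none of the NPC list. This left 20068 ES-shared regions, 33.1% of all regions. A further 26435 regions lay in all 3 lists, 8832 only in the 2i list, 3177 only in the serum list and 1119 only in the NPC list. Another 641 regions lay in the 2i and NPC lists, and 416 in the serum and NPC lists. All strengths and counts of peaks below stem from the values that made this choice, so they are given as descriptions with no test.

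NPCs came from whole brain of newborn Sox2-eGFP mice of the 129SvJae x C57BL/6 background, were grown as neurospheres and then plated on Poly-D-Lysine and laminin. V6.5 ES cells, a male line of the same 2 strains, were grown in serum with LIF, or in 2i, a medium with LIF and the kinase inhibitors CHIR99021 and PD0325901. ES cells were expanded on feeder cells and then moved to gelatin. Each of the 3 conditions had 1 CTCF ChIP-seq library, made with a Millipore antibody against CTCF, so peak values carry no replicate error, and cell type and origin of the cells (a line or a brain) cannot be told apart. In bulk cells, weaker binding in every cell and binding in fewer cells cannot be told apart. Each condition also had 2 libraries of 5C, an assay that counts ligation products between chosen restriction fragments and so reads how often 2 places touch. The 5C loci were named after Klf4, Nanog, Oct4 and Sox2 (transcription factors of pluripotent cells), after Nestin, a filament protein of neural progenitors, after Olig1-Olig2, factors of the oligodendrocyte lineage, and after a gene desert. The 5C libraries held 14887963 and 14698138 counts in NPCs, 26533530 and 25791222 in ES serum, and 11784821 and 14201950 in ES 2i. The labelled cell types could not be checked against marker genes, because no expression was measured.

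The NPC list was the shortest, with 28860 peaks, against 50185 in ES serum and 56138 in ES 2i. The lowest −log10 p was 8.22 in each list. ES-shared regions took up 40.04% of the serum peaks and 35.8% of the 2i peaks. NPC peaks lay mostly in regions of all 3 lists (92.5% of them). Membership depends on the length of the lists. When each list was cut to its 28860 strongest peaks by −log10 q, 4935 regions were ES-shared and 19979 lay in all 3 lists, so the ES-shared share of regions in both ES lists was 19.8%, against 43.2% with the full lists.

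ES-shared regions stood for the most part in the lower reaches of both ES lists. Fold enrichment, the authors' ratio of signal at a peak over its local background, had a median of 13.1 in ES serum (interquartile range 10.0 to 18.2) and 14.4 in ES 2i (10.7 to 19.6) over the ES-shared regions. Regions in all 3 lists had medians of 24.5 in serum and 23.0 in 2i. On the scale of percentiles within a list, where 100 is the strongest peak, the median ES-shared region stood at 32.5 in serum and 40.9 in 2i, and the median region of all 3 lists at 69.7 in serum and 70.8 in 2i. ES-shared regions were also narrower, with a median width of 294 bp against 391 bp for regions in all 3 lists. Regions of 1 ES list alone were weaker and narrower still, with a median percentile of 12.03 and a width of 195 bp for serum only, and 16.6 and 189 bp for 2i only. The summits of the serum and 2i peaks of a region lay a median of 18 bp apart in ES-shared regions and 13 bp apart in regions of all 3 lists, so both media placed the summit at nearly the same place. In 90.0% of ES-shared regions and 96.7% of regions in all 3 lists, these summits lay within 50 bp of each other.

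The share of ES peaks with no NPC partner ran steeply with strength. Of the 46503 regions in both ES lists, ranked by the mean of their 2 percentiles, 89.5% of those under the 10th percentile were ES-shared. The share was 55.3% from the 40th to the 50th percentile and 18.6% from the 70th to the 80th, and among regions at or above the 90th it was 5.19%. The same order held with the lists cut to equal length, where 35.0% of regions under the 20th percentile and 5.74% of those at or above the 80th were ES-shared.

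**Figure D1:**
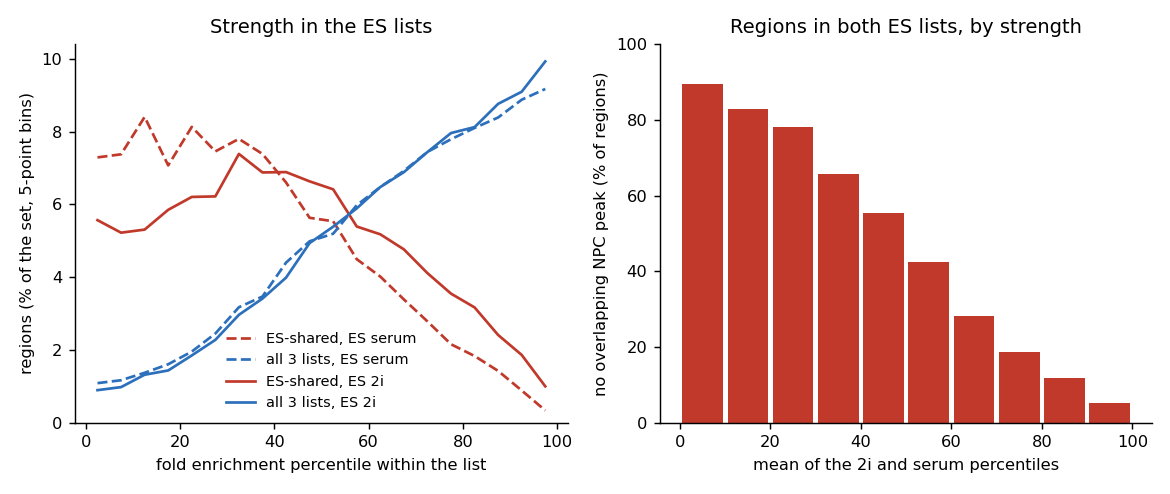
Left: distribution of fold enrichment percentiles within the serum list (dashed) and the 2i list (solid) for ES-shared regions (red) and regions in all 3 lists (blue), in 5-point bins. Right: percent of regions in both ES lists with no overlapping NPC peak, by the mean of their serum and 2i percentiles, from 89.5% in the weakest bin to 5.19% in the strongest.

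The order of strength within the ES-shared regions was only partly the same in serum and in 2i. Spearman's rho between the 2 percentiles was 0.534 over the 20068 ES-shared regions and 0.537 over the 26435 regions in all 3 lists. These are descriptions over regions of the same 2 libraries. ES-shared regions leaned towards 2i, since 62.1% of them had a higher percentile in 2i than in serum, whereas regions in all 3 lists split nearly evenly (51.9%). A percentile more than 30 points higher in serum was found for 1027 ES-shared regions (5.12%), and one more than 30 points higher in 2i for 3043 (15.2%).

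The members with the lowest fold enrichment lay far below the median fold enrichments given above. The ES-shared region with the lowest fold enrichment in both lists was chr15:74916982-74917489 (mm9), with 2.25 in serum and 2.62 in 2i. Next came chr11:3047205-3047398, with 3.30 in serum and 3.66 in 2i. The third lowest in serum was chr11:3097342-3097618 (3.74 in serum, 4.87 in 2i), and the third lowest in 2i was chr8:48939959-48940210 (9.06 in serum, 3.91 in 2i). Their −log10 p stood well above the lowest of 8.22, except in 2i on chromosome 8. It was 28.5 in serum and 34.1 in 2i on chromosome 15. In the same order it was 21.2 and 30.0, then 19.5 and 36.3, on chromosome 11, and 21.9 and 8.87 on chromosome 8. Just outside the ES-shared set stood regions whose NPC peak barely passed by −log10 p. The region chr11:115234130-115234349 had a fold enrichment of 5.27 in NPCs, 9.89 in serum and 9.88 in 2i, and its NPC −log10 p was 8.22. The region chr5:141228625-141228972 had the same NPC values beside 11.7 in serum and 26.1 in 2i, and is therefore counted as lying in all 3 lists. An NPC peak within 1000 bp was rare. The shortest gap between an ES-shared region and an NPC peak was 96 bp, 313 regions (1.56%) had one within 500 bp and 848 (4.23%) within 1000 bp. The median gap was 17.95 kb. The NPC list had no peak on the Y chromosome, where 3 ES-shared regions lay.

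ES-shared regions stood somewhat farther from the nearest region in all 3 lists than those regions stood from each other. The median distance from the centre of an ES-shared region to the nearest region in all 3 lists was 19.5 kb (interquartile range 7.02 to 50.6 kb). A region in all 3 lists lay a median of 15.2 kb from the next of its kind. The same distance was 21.1 kb for regions only in 2i, 19.8 kb for regions only in serum and 27.7 kb for regions only in NPCs. A region in all 3 lists stood within 10 kb of 32.8% of the ES-shared regions and farther than 100 kb from 12.8%. Median strength varied little along this distance. ES-shared regions within 2 kb of a region in all 3 lists had median percentiles of 30.0 in serum and 36.3 in 2i, those at 10 to 50 kb had 32.4 in serum and 41.6 in 2i, and those beyond 100 kb had 31.99 in serum and 40.7 in 2i. Sites at or above the 90th percentile of both lists were 7 of 1471 members within 2 kb, 19 of 2314 at 2 to 5 kb and 6 of 2569 beyond 100 kb. The most remote member was chr1:102783983-102784230, at 2537 kb from a region in all 3 lists, with fold enrichments of 12.2 in serum and 8.90 in 2i.

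**Figure D2:**
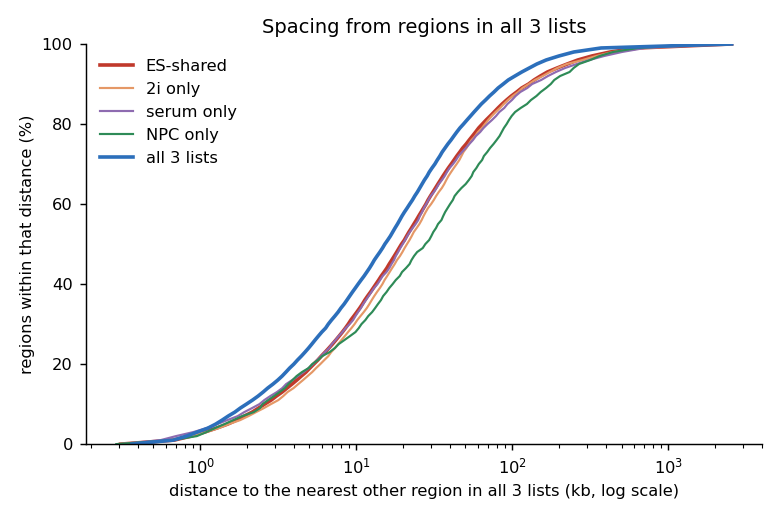
Cumulative percent of regions (vertical axis) within a given distance in kb (horizontal axis, log scale) of the nearest other region in all 3 lists. The curve of ES-shared regions (median 19.5 kb) runs close to those of regions only in 2i (21.1 kb) or only in serum (19.8 kb) and to the right of regions in all 3 lists (15.2 kb).

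Read along the chromosome, the next region after an ES-shared region was another ES-shared region in 36.7% of cases, while ES-shared regions made up 33.1% of all regions. It was a region in all 3 lists in 39.9%. After a region in all 3 lists the next one was ES-shared in 30.4%. Read as runs with no region of another kind between, 41.0% of ES-shared regions stood alone, 28.1% were in pairs and 15.6% were in runs of 4 or more. Strength was close in runs and outside them. Members of runs of 4 or more had median percentiles of 34.7 in serum and 42.6 in 2i, and lone members 31.99 in serum and 40.7 in 2i. The longest runs held 11 members. They lay at chr18:37646693-37730423 (83.7 kb), chr5:149158047-149256852 (98.8 kb) and chr5:131485436-131756652 (271 kb). Median fold enrichments in these runs were 18.6 to 21.4 in serum and 15.4 to 19.6 in 2i.

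The share of ES-shared regions was uneven along the genome, and the distal part of chromosome 5 stood out. By chromosome, 39.6% (X) to 49.6% (chromosome 5) of the regions in both ES lists were ES-shared, apart from the 3 regions on Y. In 414 windows of 5 Mb that held at least 40 regions in both ES lists, the share had a median of 42.4%, with 36.1% to 47.0% in the middle of the windows (interquartile range). The highest share was 76.2%, for 179 of 235 regions at 125 to 130 Mb of chromosome 5. Of the 11 windows at or above 60%, 4 lay on chromosome 5 at or beyond 125 Mb and 2 on chromosome 12, at 20 to 25 Mb (70.2%) and 115 to 120 Mb (70.0%). The lowest share was 17.8%, at 105 to 110 Mb of chromosome 10.

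From 125 Mb to the end of chromosome 5, a stretch picked after its windows were seen, 754 of 1242 regions in both ES lists were ES-shared (60.7%). The share was 43.3% on the rest of chromosome 5 and 42.6% on the other chromosomes. With lists of equal length it was 37.4% in the stretch and 19.3% elsewhere in the genome. Regions in all 3 lists in that stretch had median percentiles of 49.7 in NPCs, 77.5 in serum and 77.3 in 2i. On the other chromosomes these medians were 53.2 in NPCs, 69.7 in serum and 70.7 in 2i. The difference between stretches was not tested, since peak calls of 1 library a condition carry no replicate spread.

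**Figure D3:**
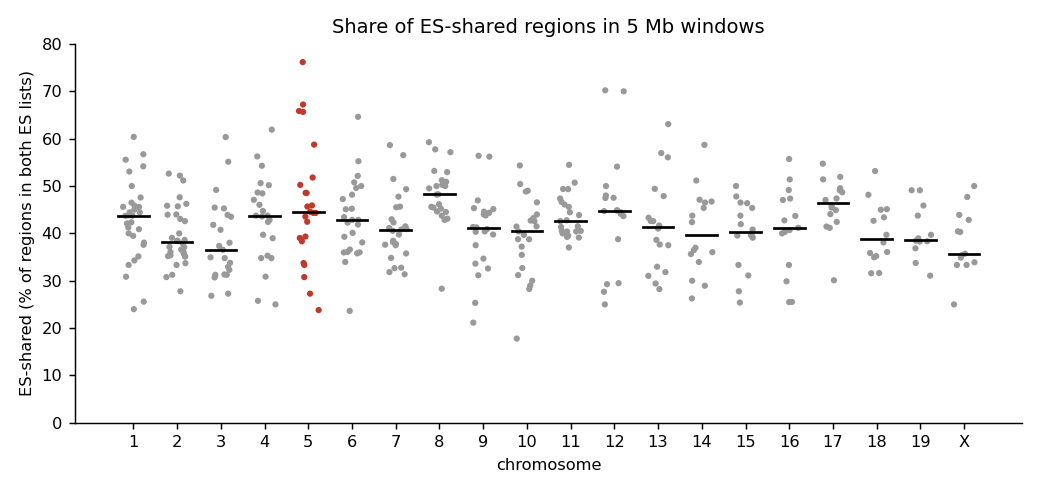
Each point is a 5 Mb window, and the vertical axis gives the percent of its regions in both ES lists that were ES-shared. Black lines are medians per chromosome and red marks chromosome 5, whose highest window reached 76.2% against a median of 42.4% over all windows.

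Strong sites were rare among the ES-shared regions. A site was counted as strong when its fold enrichment stood at or above the 90th percentile of the serum list and of the 2i list, which were ratios of 36.1 in serum and 32.7 in 2i. Of 2277 such regions in both ES lists, 95 had no NPC peak (4.17%), which was 0.473% of the ES-shared regions. Strong regions with an NPC peak had a median NPC percentile of 78.2. Strong ES-shared sites lay a median of 10.7 kb from a region in all 3 lists, with a range of 0.702 to 236 kb. Only 3 of the 95 had an NPC peak within 1 kb, and 48 had one within 10 kb. Chromosome 5 held 17 of them and chromosome 8 held 10, while chromosomes 13, 19 and X held none. As a share of the strong regions in both ES lists, the highest values were 9.09% on chromosome 18 (4 of 44), 8.90% on chromosome 5 (17 of 191), 6.67% on chromosome 16 (3 of 45) and 6.54% on chromosome 8 (10 of 153).

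The strongest ES-shared site, by the lower of its 2 percentiles, was chr6:124422783-124423319, 537 bp wide. It had a fold enrichment of 65.9 in serum and 53.9 in 2i, and the nearest NPC peak lay 7.00 kb away. The nearest region in all 3 lists had 17.03 in NPCs, 26.6 in serum and 24.3 in 2i. The site was picked for its high ES values, so lower ES values at its neighbour follow from that choice.

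The site at chr7:35634529-35635086 came next, with 49.5 in serum and 54.4 in 2i, 22.7 kb from an NPC peak. At chr5:66342672-66343217 the values were 49.5 in serum and 45.9 in 2i, and an NPC peak lay 3.91 kb away. At chr16:13699013-13699553 they were 51.1 in serum and 44.1 in 2i. At chr5:149186988-149187494 they were 46.9 in serum and 46.2 in 2i, and this site belongs to one of the 3 longest runs given above. The remaining 5 of the 10 strongest were chr18:75630718-75631228, chr4:144809352-144810014, chr2:177556690-177557053, chr10:60885858-60886368 and chr17:65908669-65909164. Their fold enrichments ran from 44.7 to 51.5 in serum and from 40.7 to 50.4 in 2i. Among these 5, the chromosome 2 site was the most remote, 236 kb from any NPC peak, and the chromosome 17 site the closest, with an NPC peak at 0.832 kb. With no genome of the files' build at hand, sequences and genes at these sites were not analysed here.

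Within the 7 loci covered by 5C lay 149 ES-shared regions and 185 regions in all 3 lists. Oct4 held 62 ES-shared regions, Nanog 26, Nestin 18, Klf4 16, Olig1-Olig2 14, Sox2 11 and the gene desert 2. None of the 149 was a strong site. ES-shared regions were 72.7% of the regions in both ES lists at Klf4, 64.7% at Sox2 and 53.1% at Nanog. The share was 41.6% at Oct4, 41.2% at Olig1-Olig2 and 29.5% at Nestin, so Oct4 stood beside Olig1-Olig2. Klf4 and Sox2 each held only 6 regions in all 3 lists. The gene desert, which lies in the distal stretch of chromosome 5, held no region in all 3 lists. The site with the highest value of the lower of its 2 percentiles was taken for each locus, and others could be higher in a single list. At Klf4 it was chr4:55377245-55377740, with a fold enrichment of 35.2 in serum and 36.9 in 2i. At Nanog it was chr6:122778046-122778535 (30.9 in serum, 45.9 in 2i) and at Oct4 chr17:34520181-34520554 (26.0 in serum, 40.7 in 2i). At Olig1-Olig2 it was chr16:90694957-90695365 (28.8 in serum, 28.4 in 2i) and at Nestin chr3:88077946-88078324 (33.7 in serum, 24.8 in 2i). At Sox2 it was chr3:34535887-34536217, with 22.4 in serum and 19.1 in 2i, and in the gene desert chr5:133317737-133318031 with 13.8 in serum and 18.6 in 2i.

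The 5C counts were not used to choose the regions, so they allow a test of contacts between them. Counts were summed over pairs of 16 kb windows within a locus, set against the fall of contacts with distance in each library, and compared between conditions with edgeR's quasi-likelihood test over 15190 window pairs, each with 2 libraries a condition. A window pair is called a member pair where an ES-shared region lies in both of its windows. There were 1619 member pairs among those tested, made by 121 windows that recur in many pairs, and 1195 of them lay in the large Oct4 locus.

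In NPCs against ES cells in 2i, contacts between ES-shared regions were lower more often than higher. Of the 1619 member pairs, 257 were called lower (15.9%) and 77 higher (4.76%) at a Benjamini-Hochberg adjusted p below 0.05. Over all window pairs, 9.29% were called lower and 8.04% higher, and 17.3% in either direction. The median log2 fold change was -0.15 over the member pairs and 0.00 over all pairs. Where neither window held a region in all 3 lists, 76 of 434 member pairs were lower and 19 were higher, with a median of -0.26. By contrast, among 877 pairs with regions of all 3 lists in both windows and no ES-shared region in either, 49 were lower and 111 higher, with a median of 0.12. Without ES 2i replicate 1, the median log2 fold change was -0.11 over member pairs and 0.02 over all pairs. With windows of 32 kb, 30.2% of member pairs and 30.2% of all pairs were called, and 59.4% of the called member pairs were lower (218, against 149 higher) beside 49.2% over all pairs.

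In NPCs against ES cells in serum, both directions were close to the background. Of the member pairs, 242 were lower (14.9%) and 227 higher (14.0%), beside 13.9% lower and 14.5% higher over all pairs, where 28.4% were called in either direction. The median log2 fold change was -0.03 over member pairs and -0.01 over all pairs. Where neither window held a region in all 3 lists, 84 of 434 member pairs were lower (19.4%) and 52 higher (11.98%). Of the 877 pairs with regions of all 3 lists in both windows and no ES-shared region, 100 were lower and 198 higher. In all, 469 member pairs were called. Without ES serum replicate 1 the median log2 fold change was -0.01 over member pairs and 0.003 over all pairs. Without ES serum replicate 2 it was -0.02 and 0.005.

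In ES cells in serum against ES cells in 2i, 2 conditions that both list these regions, member pairs were again more often lower. There were 306 lower (18.9%) and 120 higher (7.41%), against 11.4% lower and 9.24% higher over all pairs, with 20.6% called in either direction. The median log2 fold change was -0.17 over member pairs and -0.01 over all pairs. Both comparisons with 2i share the same 2i libraries, so they are not independent of each other. Without ES serum replicate 2 the median was -0.18 over member pairs and -0.02 over all pairs. It was -0.20 and -0.03 without ES serum replicate 1, and -0.12 and -0.0007 without ES 2i replicate 1. With windows of 32 kb, 30.8% of member pairs and 29.0% of all pairs were called, and 51.6% of the called member pairs were lower (193, against 181 higher) beside 49.6% over all pairs.

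The levels in each library show the same order. The median of log2 counts over the distance trend for the 1619 member pairs was 0.04 and 0.06 in the NPC libraries, 0.04 and 0.04 in the ES serum libraries, and 0.29 and 0.25 in the ES 2i libraries. Both 2i libraries stood above the 4 others, and the NPC and serum libraries lay together. For pairs of regions in all 3 lists with no ES-shared region, the medians were 0.44 and 0.46 in NPCs, 0.33 and 0.33 in serum, and 0.37 and 0.30 in 2i. Over all pairs, every library lay between 0.09 and 0.14. Depth moves with these groups, since the serum libraries were the deepest, and its part in the result was not tested.

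**Figure D4:**
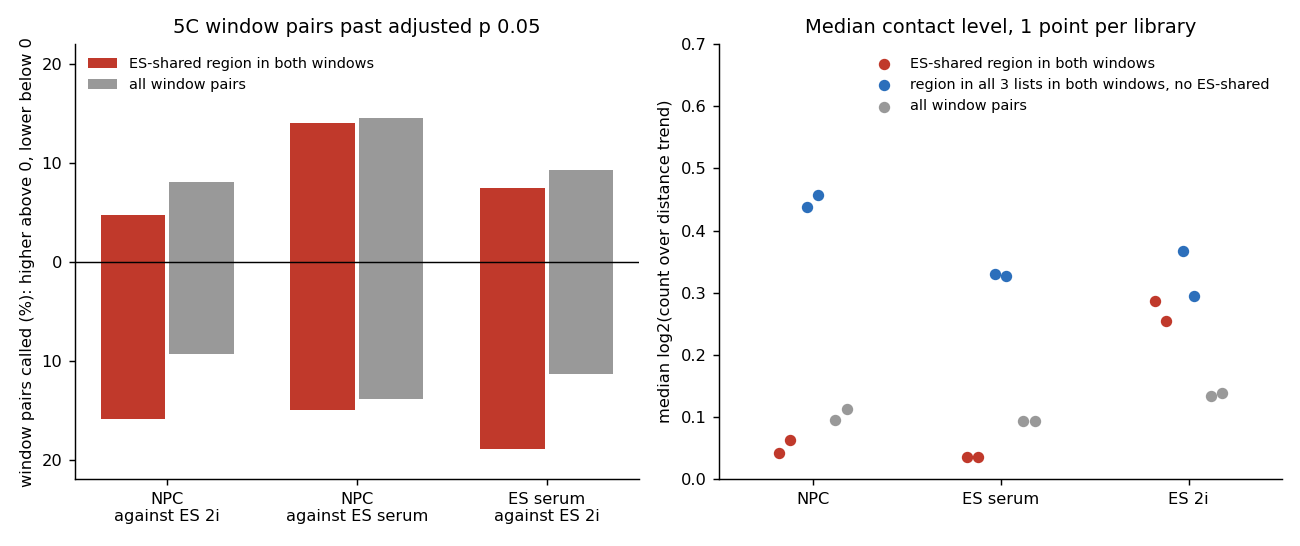
Left: percent of 5C window pairs called higher (above 0) or lower (below 0) at an adjusted p below 0.05, for member pairs (red, 1619) and all pairs (grey, 15190). Right: median log2 count over the distance trend per library (1 point each, 2 a condition). Member pairs stand at 0.25 and 0.29 in both 2i libraries and at 0.04 to 0.06 in the other 4.

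The loci differed in how far their member pairs followed this pattern. At Klf4, 32 of 78 member pairs were lower in NPCs than in 2i and 1 was higher, beside 9.44% lower over all 1811 pairs of the locus, and the median log2 fold change was -0.53. Member pairs at Klf4 were at 0.68 and 0.41 over the trend in NPCs, 0.37 and 0.20 in serum, and 1.14 and 0.96 in 2i. In serum against 2i, 42 of these 78 pairs were lower, beside 12.8% lower over the locus. At Sox2, 20 of 45 member pairs were lower in NPCs than in 2i and 10 were higher, beside 14.7% each way over the locus. Their median levels were 0.34 and 0.34 in NPCs, 0.83 and 0.85 in serum, and 0.90 and 0.86 in 2i. By median level at Sox2, the serum libraries thus stood near 2i and the NPC libraries were low. Pair by pair, serum was not level with 2i. There, 11 of the 45 pairs were lower in serum than in 2i (24.4%) and 4 were higher. Over the locus, 11.7% were lower and 9.22% higher. The median log2 fold change of the 45 pairs was -0.24. At Sox2, 16 of the 45 pairs were lower and 8 higher in NPCs than in serum, beside 16.8% lower and 18.1% higher over the locus.

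At Oct4, 155 of 1195 member pairs were lower in NPCs than in 2i (13.0%) and 49 higher, beside 7.92% lower and 5.28% higher over the locus. Over the other loci together, 102 of 424 member pairs were lower (24.1%) and 28 higher (6.60%), beside 10.2% lower and 9.87% higher over all their pairs. At Nanog the member pairs stayed near their locus, with 21 of 136 lower (15.4%, beside 13.5%) and a median of -0.05. Nestin had 17 of 111 lower and 6 higher, beside 7.34% lower and 6.42% higher over the locus. Olig1-Olig2 had 12 of 53 lower and 2 higher, beside 8.66% lower and 10.3% higher, and the gene desert had a single member pair, with a log2 fold change of -0.15, which did not pass the threshold.

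At Sox2 and at Klf4 a single window each was singled out after its values were seen. All pairs of such a window share it, so they are not separate changes. Its pairs with windows that lack an ES-shared region were not examined. The window chr3:34652880-34668879 at Sox2 held 1 ES-shared region, chr3:34658831-34659228, and no region in all 3 lists. All 9 of its member pairs were lower in NPCs than in 2i, with a median log2 fold change of -1.46, beside 14.7% lower over the locus. In NPCs against serum, 6 of 9 were lower, beside 16.8% over the locus. In serum against 2i, 4 of 9 were lower, with a median of -0.52, beside 11.7% over the locus. The fold enrichment of that region was 28.1 in serum and 15.5 in 2i. The window chr4:55475979-55491978 at Klf4 held the ES-shared region chr4:55490750-55491090, with 9.26 in serum and 14.1 in 2i. Of its 12 member pairs, 10 were lower in NPCs than in 2i, with a median of -1.59, beside 9.44% lower over the locus. In serum against 2i, 11 were lower, with a median of -1.20, beside 12.8% over the locus. In NPCs against serum, 3 of the 12 were lower, with a median of -0.15, beside 8.34% over the locus.

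The lower share of member pairs stood further above that of all pairs at short distance, in percentage points. The share over all pairs also fell with distance, and as a ratio the excess was not larger under 100 kb than at 500 to 1000 kb. Of member pairs under 100 kb apart, 73 of 229 were lower in NPCs than in 2i (31.9%) and 29 higher, beside 16.3% lower over all pairs of that distance. At 500 to 1000 kb, 48 of 452 were lower (10.6%) and 14 higher, beside 4.38% lower over all pairs. Beyond 1000 kb, 11 of 276 were lower (3.99%) and 4 higher (1.45%), close to the 3.01% lower and 1.19% higher over all pairs.

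Among member pairs 3 or more windows apart whose libraries did not overlap, those with the largest called changes lay in the Oct4 locus in each comparison. Between chr17:35614392-35630391 and chr17:36350392-36366391 there were 4 and 4 counts in NPCs, 43 and 78 in serum, and 87 and 74 in 2i. The NPC libraries were the lowest, with a log2 fold change of -4.03 ± 0.62 (SE) against 2i, at an edgeR adjusted p of 0.000513, and of -2.84 ± 0.63 against serum, at 0.00373. All of these counts came from 1 primer pair. Between chr17:34942392-34958391 and chr17:35902392-35918391 there were 3393 and 1898 counts in NPCs, 8681 and 14498 in serum, and 316 and 688 in 2i. This pair was the largest rise against 2i, by 2.53 ± 0.30 (SE) in NPCs (edgeR adjusted p 5.95e-05) and by 3.70 ± 0.31 in serum (adjusted p 1.13e-05). One primer pair gave 96.8% of its counts.

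The third such pair, between chr17:34798392-34814391 and chr17:36334392-36350391, rested on few counts, with 34 and 12 in NPCs, 7 and 2 in serum, and 22 and 17 in 2i. Serum was the lowest, by a log2 fold change of -3.17 ± 0.85 (SE) against 2i at an edgeR adjusted p of 0.0176, and NPCs stood 3.31 ± 0.85 above serum at 0.00926. Without ES serum replicate 2 the edgeR adjusted p was 0.156 for serum against 2i and 0.0917 for NPCs against serum. It was 0.162 without ES 2i replicate 1 and 0.0522 without ES serum replicate 1 for serum against 2i, and 0.0939 without NPC replicate 1 for NPCs against serum.

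The authors' deposited table sorts pixels (pairs of 4 kb bins) of the same 5C libraries into looping classes, which name the conditions where a pixel scores high. Pixels with an ES-shared region at both anchors were most frequent in the class of 2i and serum, with 24 of 374 (6.42%), and in the class of 2i only, with 25 of 451 (5.54%). They were 2 of 347 in the class of serum only (0.576%), 5 of 712 in that of NPC only (0.702%), 22 of 1424 constitutive pixels (1.54%) and 13 of 1820 background pixels (0.714%). For regions in all 3 lists the order was different. They were at both anchors of 25 of 530 pixels in the class of 2i and NPC (4.72%) and 65 of 1424 constitutive pixels (4.56%). The counts were 20 of 712 in the class of NPC only (2.81%) and 7 of 374 in that of 2i and serum (1.87%). Pixels of a cluster lie side by side, so clusters were counted too. An ES-shared region at both anchors of a pixel was found in 9 of 46 clusters of the class of 2i and serum. It was found in 7 of 59 of 2i only and in 15 of 141 constitutive clusters. By cluster, the class of 2i only thus stood close to the constitutive one. The counts were 7 of 93 clusters in 2i and NPC, 4 of 75 in NPC only and 2 of 61 in serum only. They were 1 of 33 in serum and NPC and 13 of 365 in background. For regions in all 3 lists the clusters were 5 of 46 in the class of 2i and serum and 11 of 75 in NPC only. They were 15 of 93 in 2i and NPC and 32 of 141 in the constitutive class. In 2i only they were 5 of 59, in serum only 5 of 61, in serum and NPC 3 of 33 and in background 18 of 365.

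Most of these pixels were at Oct4. That locus gave 17 of the 24 in the class of 2i and serum, which formed 3 clusters, and 24 of the 25 in the class of 2i only, which formed 6. Within Oct4 the share was 14.7% of 116 pixels in the class of 2i and serum, 21.4% of 112 in the class of 2i only and 2.08% of 867 constitutive pixels. The median deposited score of the 24 pixels was 16.6 and 15.2 in the NPC libraries, 50.1 and 49.2 in serum, and 50.4 and 64.0 in 2i. The class was defined from these scores, so they describe it and test nothing.

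**Figure D5:**
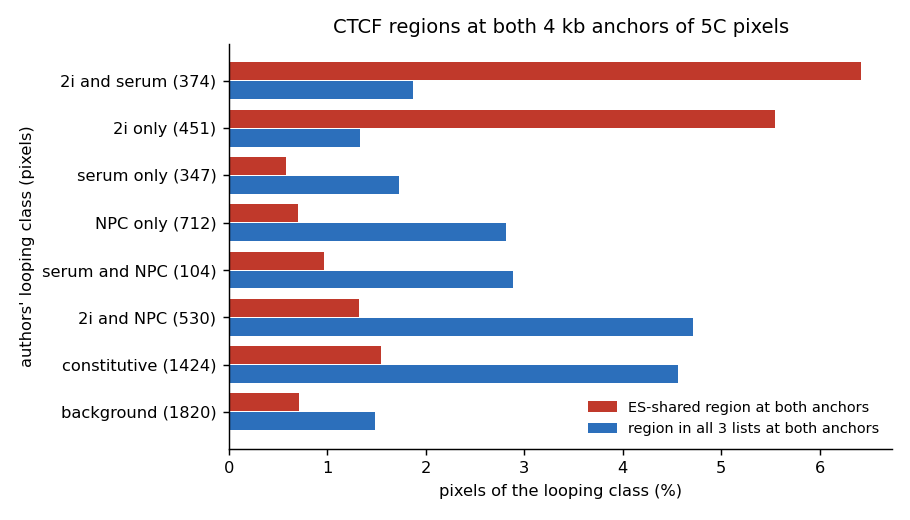
Percent of the pixels of each of the authors' looping classes (number of pixels in brackets) with an ES-shared region (red) or a region in all 3 lists (blue) in both 4 kb anchors. ES-shared regions were at both anchors of 6.42% of pixels in the class of 2i and serum and 5.54% in the class of 2i only, and of at most 1.54% in the others.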

How the data were processed

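MACS2 and the build mm9 are named for the CTCF libraries in the submitters' processing notes, without a version. The deposited lists give a fold enrichment (ratio), a −log10 p and a −log10 q per peak, on reads that the deposited names describe as downsampled. Peak names point to 1 library per list, and inputs were not analysed here. Fold enrichment is the authors' value and was used only to describe or rank peaks within a list.

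The deposited 5C tables hold raw read counts per primer pair, and the submitters' processing notes name Bowtie and mm9 for them. The deposited looping classes and interaction scores are the authors' own, on a scale that the sources used here do not state. The siRNA libraries and 55 other per-sample columns were left out. Of each library's counts, 79.3% to 90.0% were forward-reverse pairs within a locus and the authors' bins and were used. PCR reads are not independent molecules.

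Regions were merged in Python 3.11.15 and checked with bedtools 2.31.1. Window pairs of 16 kb, made of different windows, were tested with edgeR 4.0.16 in R 4.3.3 (filterByExpr defaults). The offset per library and locus was a loess fit, with span 0.5, of the log of counts plus 0.5 against distance, with TMM factors on the detrended counts. All 6 untreated libraries shared 1 fit with group as the only term, and p-values were adjusted by Benjamini-Hochberg over all pairs. DESeq2 1.42.0 was an alternative tool. The fit was tested on simulated data. Replicates are separate libraries per the labels, with no word on separate cultures, so p-values measure the spread between them. Their chi-square per degree of freedom was 16.9 to 19.1, so no library was a duplicate.

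Members, lists and rules were chosen with earlier results of these data known. Named sites were the 10 with the highest lower-of-2 percentiles, the strongest per locus and the members with the lowest fold enrichment. The longest runs and the most remote member were named too. Named window pairs were the largest rise and fall per comparison among member pairs past the threshold with separated libraries. No mm9 genome or annotation was used, so a planned motif search was not run.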

Additional observations from a re-analysis of the deposited data

How the results depend on the processing

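The cause of the changes below was not tested, apart from the fewer peaks, pairs or libraries that a setting leaves. With each list cut to its strongest 28860 peaks, 4935 regions were ES-shared and 25 of them strong, with median percentiles of 36.4 in serum and 43.9 in 2i and a median distance of 22.2 kb to a region in all 3 lists, where regions in all 3 lists stood 17.8 kb from the next. With peaks at a −log10 q of at least 20, 17323 regions were ES-shared and 152 strong, at percentiles of 35.9 in serum and 43.9 in 2i and at 24.8 kb. Merging peaks up to 500 bp apart gave 20.4 kb. Ranked by −log10 q, the percentiles were 31.5 in serum and 39.8 in 2i. With the 95th or 80th percentile as the limit, 21 or 443 members were strong.

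Member pairs called in NPCs against 2i, in NPCs against serum and in serum against 2i numbered 334, 469 and 426. These were of 1619 pairs, and 17.3%, 28.4% and 20.6% of all pairs were called. With a region in at least 1 window they were 1419, 2239 and 1658 of 7663 (18.5%, 29.2% and 21.6%). From lists of equal length they were 23, 36 and 36 of 116 (19.8%, 31.0% and 31.0%). In windows with no region of all 3 lists they were 95, 136 and 123 of 434 (21.9%, 31.3% and 28.3%). Without the Oct4 locus they were 130, 142 and 143 of 424 (30.7%, 33.5% and 33.7%). Over all pairs outside Oct4 the shares were 20.1%, 29.6% and 20.5%. Both of these settings were chosen after seeing the data. Windows of 8 kb gave 201 of 1328 in NPCs against 2i (15.1%, beside 9.16% of all pairs). Leaving out 1 library gave 166 to 282, 231 to 456 and 127 to 511. All of these settings test other pairs or fewer libraries. With the replicate number as a block the member pairs called numbered 400, 538 and 507 (24.7%, 33.2% and 31.3%), beside 21.2%, 32.5% and 25.2% of all pairs. Same-numbered libraries correlated by 0.02 to 0.09 in their deviations, which gave no sign of pairing but cannot exclude it. Of 79 alternative values of these results, 46 stayed within the limits set for a change. No alternative reversed a named pair, but these pairs were chosen for large changes with separated libraries, so a reversal was unlikely from the start.

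Each condition had 1 ChIP library with no read depth given, so a missing NPC peak shows only that none passed the call limit. The 2 libraries per 5C condition limit the counts called.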
